A study of Sus scrofa with 8 samples.

Results

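Programmed cell death removes damaged or surplus cells from the intestinal lining, which renews itself from dividing cells in the crypts. The tumour suppressor p53 responds to DNA damage by switching on genes that stop division (CDKN1A), that limit p53 itself (MDM2) and that favour death. Death is carried out along a pair of routes: surface receptors such as FAS activate the protease CASP8, and the balance of BCL2 family proteins (BAX, BAK1 and BID for death, BCL2L1 against it) decides whether mitochondria are permeabilised. BID links the routes, because CASP8 cleaves it into its active form. All of these proteins are also controlled after transcription, and the arrays measured messenger RNA alone.

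Apoptosis regulators and p53 targets were described here through 8 listed genes: CDKN1A, MDM2, BAX, BAK1, BID, BCL2L1, FAS and CASP8. A gene was kept when a non-control probe carried a RefSeq accession of that gene, and its probe with the highest mean log2 processed signal over all arrays stood for it. By this rule 5 of the 8 genes, with 8 probes in all, were found among the 3216 genes that could be named on the array: MDM2 (probe A_72_P303004, accession NM_001105303), FAS (A_72_P232422, NM_213839), CASP8 (A_72_P443353, NM_001031779), BID (A_72_P146386, NM_001030535) and BCL2L1 (A_72_P035621, NM_214285). CDKN1A, BAX and BAK1 had no probe with such a name and were not analysed here. Of all 43603 probes, 36679 had no symbol, so transcripts of these 3 genes may be among them.

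The 2 groups were 4 weaned and 4 suckling piglets (Duroc × Landrace), all sampled at 25 days of age from the middle jejunum. The weaned piglets had been taken from the sow at 21 days and ate a feed freely (CP 20.50%, DE 14.48 MJ per kg), while the suckling piglets stayed with the sow. Each treatment took 1 piglet from each of 4 litters, and each array held RNA from a 2 cm segment of the whole gut wall, so epithelium, immune cells, vessels, stroma and muscle were mixed. In such bulk samples fewer cells of a type and less RNA per cell cannot be told apart.

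The weaned arrays shared a slide and a scan, and the suckling arrays shared another slide and scan. Slide and group therefore cannot be told apart here. Signals are log2 values relative to the 75th percentile of the array, so 0 marks that percentile. The percentile itself was 245.0 intensity units in suckling replicate 1 and 316.8 to 395 in the other 7 arrays. Suckling replicate 1 stood apart from its group: its correlation with the other suckling arrays across probes was 0.953 to 0.967, against 0.978 to 0.983 among those 3, and it correlated best with weaned replicate 1 (0.978). It was the highest or the lowest of the 8 arrays for 39.5% of the tested probes. The comparison of each member is therefore also given without it. Of the 6 enterocyte markers with a named probe all were well above background, so the labelled tissue showed its epithelium. Their summed signal, in multiples of the 75th percentile, was 859 to 1476 in weaned piglets and 605 to 2395 in suckling piglets, and suckling replicate 1 had the lowest value. The 4 markers of proliferating crypt cells summed to 31.2 to 55.4 in weaned piglets and 16.3 to 58.7 in suckling piglets, with suckling replicate 1 highest. By group means MYBL2 had the largest part of the crypt sum (mean log2 signal 4.78 in weaned and 3.89 in suckling piglets). In the enterocyte sum FABP1 (8.78 and 8.77) and APOA4 (8.16 and 8.72) had the largest parts. The marker sums of 2 other lists did not overlap between groups. The 8 T and NK lymphocyte markers summed to 45.5 to 55.6 in weaned and 18.4 to 39.9 in suckling piglets, and the 5 endothelium markers to 14.3 to 14.5 in weaned and 16.2 to 17.8 in suckling piglets. The T and NK sum mainly follows GZMB, whose mean log2 signal was 5.38 in weaned and 4.34 in suckling piglets. Every other marker of that list had a group mean of at most 1.24. The mean was higher in weaned piglets for 6 of the 8 and lower for CD3D and CD3G. No single marker passed the limma threshold.

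The comparison asks whether messenger RNA of these regulators differed between recently weaned piglets and piglets still with the sow. None of the 5 genes passed the threshold of a limma adjusted p under 0.05. Over all tested probes 0.177% passed (54 of 30554), 0.173% higher and 0.00327% lower in weaned piglets, and so few calls give a count of 0 among 5 no weight. At an unadjusted p under 0.05 there were also 0 of 5 members, against 12.3% of all tested probes. The mean was higher in weaned piglets for MDM2, BID, BCL2L1 and FAS and lower for CASP8. The median log2 difference of the 5 was 0.14, against 0.04 over all tested probes and 0.06 over the 2813 tested genes with a symbol. In none of the 5 were the groups separate, where 7.76% of all tested probes had groups that did not overlap (4.93% higher and 2.83% lower in weaned piglets).

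**Figure D1:**
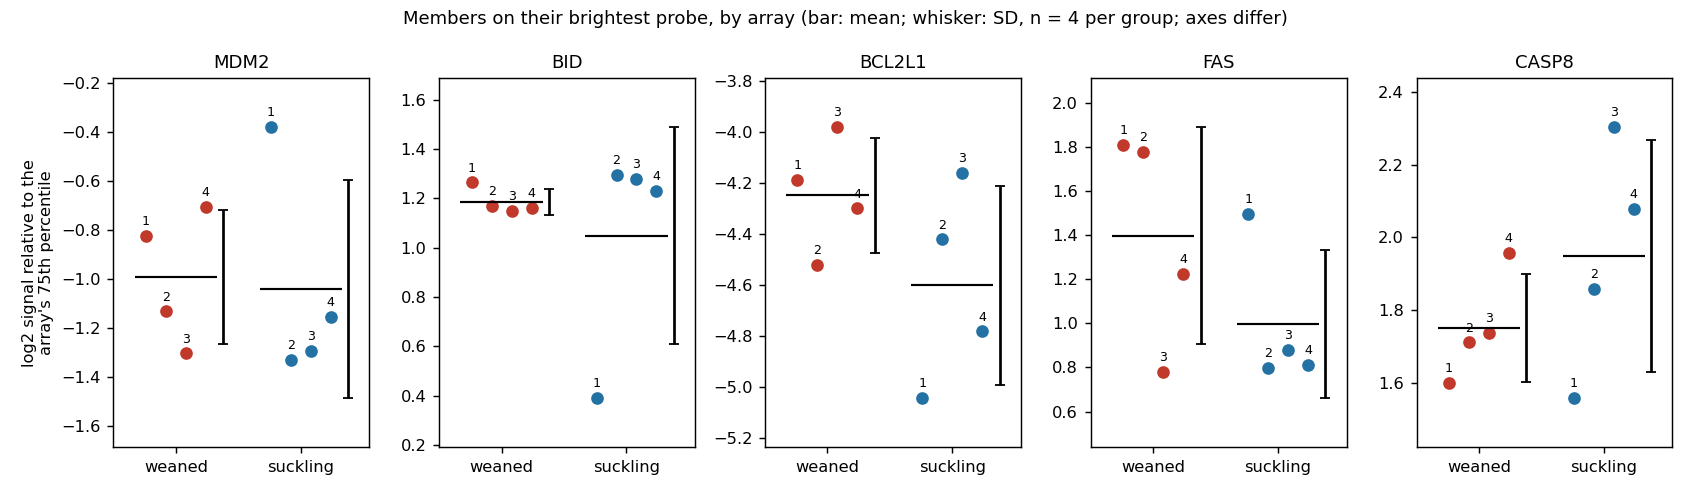
Log2 signal of MDM2, BID, BCL2L1, FAS and CASP8 relative to the array's 75th percentile (vertical axis, a separate scale for each gene) in the 4 weaned and the 4 suckling piglets. Points are arrays numbered by replicate, the bar is the mean and the whisker the SD (n = 4 per group); the groups overlap for all 5 genes, and suckling replicate 1 is the highest array for MDM2 and the lowest for BID, BCL2L1 and CASP8.

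MDM2 encodes the ubiquitin ligase that marks p53 for degradation and is itself switched on by p53. Its log2 signal was -0.82, -1.13, -1.30 and -0.71 in weaned replicates 1 to 4 and -0.38, -1.33, -1.29 and -1.16 in suckling replicates 1 to 4. Suckling replicate 1 was thus the highest of the 8 arrays, and the groups overlapped, with the other 3 suckling arrays in the lower part of the weaned range or just below it. The group means were -0.99 ± 0.27 in weaned and -1.04 ± 0.45 in suckling piglets (SD, n = 4 each), a log2 difference of 0.05 (SE 0.24, 95% interval -0.50 to 0.60, limma adjusted p = 0.951). On the linear scale this interval runs from 0.705-fold to 1.52-fold. Without suckling replicate 1 the difference was 0.27 (SE 0.18, 95% interval -0.14 to 0.68, limma adjusted p = 0.411), against 0.05 with all 8 arrays. The sign stayed the same there, and the groups still overlapped. The sign of the 8-array value turned without weaned replicate 1 or 4 or suckling replicate 2 or 3 (log2 differences -0.01, -0.05, -0.05 and -0.04). These data therefore give MDM2 no settled direction.

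FAS is the surface receptor that starts death signalling when it binds FAS ligand. Its log2 signal was 1.81, 1.78, 0.78 and 1.22 in the weaned piglets and 1.498, 0.80, 0.88 and 0.81 in the suckling piglets. Weaned replicates 1, 2 and 4 and suckling replicate 1 were high, and weaned replicate 3 was the lowest of the 8, just below the other 3 suckling arrays, so the groups overlapped. The means were 1.40 ± 0.49 in weaned and 1.00 ± 0.34 in suckling piglets (SD, n = 4 each), with a log2 difference of 0.40 (SE 0.27, 95% interval -0.21 to 1.01, limma adjusted p = 0.585). This is 1.32-fold, with an interval of 0.863-fold to 2.02-fold, so a doubling in weaned piglets lies at the upper edge of what these arrays allow.

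The second FAS probe (A_72_P444375) was dim, well above background on 3 of 4 weaned and 3 of 4 suckling arrays. Its signal was -3.66, -4.28, -5.46 and -4.63 in weaned and -4.93, -5.03, -5.15 and -5.10 in suckling piglets, with weaned minus suckling at 0.54 (SE 0.33, limma adjusted p = 0.545). Both probes therefore had a higher mean in weaned piglets and the lowest weaned value in replicate 3, and neither passed. On the brighter probe the difference without suckling replicate 1 was 0.57 (SE 0.26, 95% interval -0.03 to 1.16, limma adjusted p = 0.239). It was 0.61 without weaned replicate 3 (limma adjusted p = 0.364), but 0.26 without weaned replicate 1 (limma adjusted p = 0.855) and 0.27 without weaned replicate 2 (limma adjusted p = 0.808), so its size leaned on those 2 high arrays. FAS had the widest spread within groups of the 5 genes, with a pooled SD of 0.42, larger than that of 70.4% of tested probes.

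CASP8 is the initiator protease that active FAS recruits. Its log2 signal was 1.60, 1.71, 1.74 and 1.96 in weaned piglets and 1.56, 1.86, 2.30 and 2.08 in suckling piglets. The 3 suckling arrays other than replicate 1 were above weaned replicates 1 to 3, and suckling replicate 1 was the lowest of all, so the groups overlapped. The means were 1.75 ± 0.15 in weaned and 1.95 ± 0.32 in suckling piglets (SD, n = 4 each), with a log2 difference of -0.20 (SE 0.19, 95% interval -0.62 to 0.22, limma adjusted p = 0.706). Without suckling replicate 1 it was -0.33 (SE 0.16, 95% interval -0.70 to 0.05, limma adjusted p = 0.274), and without suckling replicate 3, the highest array, it was -0.08 (SE 0.18, limma adjusted p = 0.917). CASP8 had the narrowest spread of the 5, with a pooled SD of 0.25. Its interval excludes a doubling as well as a halving, and so do those of MDM2, BID and BCL2L1.

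The other CASP8 probes did not share one sign. Probe A_72_P146716 had means of 0.85 ± 0.20 in weaned and 0.76 ± 0.39 in suckling piglets, weaned minus suckling 0.09 (SE 0.22, limma adjusted p = 0.900). Probe A_72_P228337 had -0.61 ± 0.08 in weaned and -0.54 ± 0.15 in suckling piglets, weaned minus suckling -0.07 (SE 0.14, limma adjusted p = 0.880). With the mean of the 3 probes in place of the brightest one the log2 difference of CASP8 was -0.06 (limma adjusted p = 0.914).

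BID carries the death signal from CASP8 to the mitochondria. Its log2 signal was 1.26, 1.17, 1.15 and 1.16 in weaned piglets and 0.39, 1.30, 1.28 and 1.23 in suckling piglets. All arrays except suckling replicate 1 lay within a narrow band, and suckling replicate 1 was far below it. The groups overlapped with and without that array. The means were 1.19 ± 0.05 in weaned and 1.05 ± 0.44 in suckling piglets (SD, n = 4 each), with a log2 difference of 0.14 (SE 0.22, 95% interval -0.35 to 0.63, limma adjusted p = 0.834). The sign rested on that array: without it the suckling mean was 1.27 ± 0.03 (SD, n = 3), the log2 difference -0.08 (SE 0.12, 95% interval -0.37 to 0.20, limma adjusted p = 0.735).

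BCL2L1 encodes BCL-XL, which protects mitochondria from the pore-forming proteins. Its probe was dim, well above background on all 4 weaned arrays and on 3 of 4 suckling arrays, with suckling replicate 1 as the exception. The log2 signal was -4.19, -4.52, -3.98 and -4.30 in weaned piglets and -5.04, -4.42, -4.16 and -4.78 in suckling piglets. Suckling replicates 1 and 4 were the lowest arrays, and replicates 2 and 3 lay within the weaned range, so the groups overlapped. The means were -4.25 ± 0.23 in weaned and -4.60 ± 0.39 in suckling piglets (SD, n = 4 each), with a log2 difference of 0.35 (SE 0.22, 95% interval -0.14 to 0.85, limma adjusted p = 0.551). Without suckling replicate 1 it was 0.21 (SE 0.20, limma adjusted p = 0.576). With 2 other background corrections the value was -0.21 or -0.03, so its direction is not settled either. Both of these added an offset of 50 intensity units, and this probe is dim. Of 19 alternatives 17 kept the higher mean in weaned piglets.

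**Figure D2:**
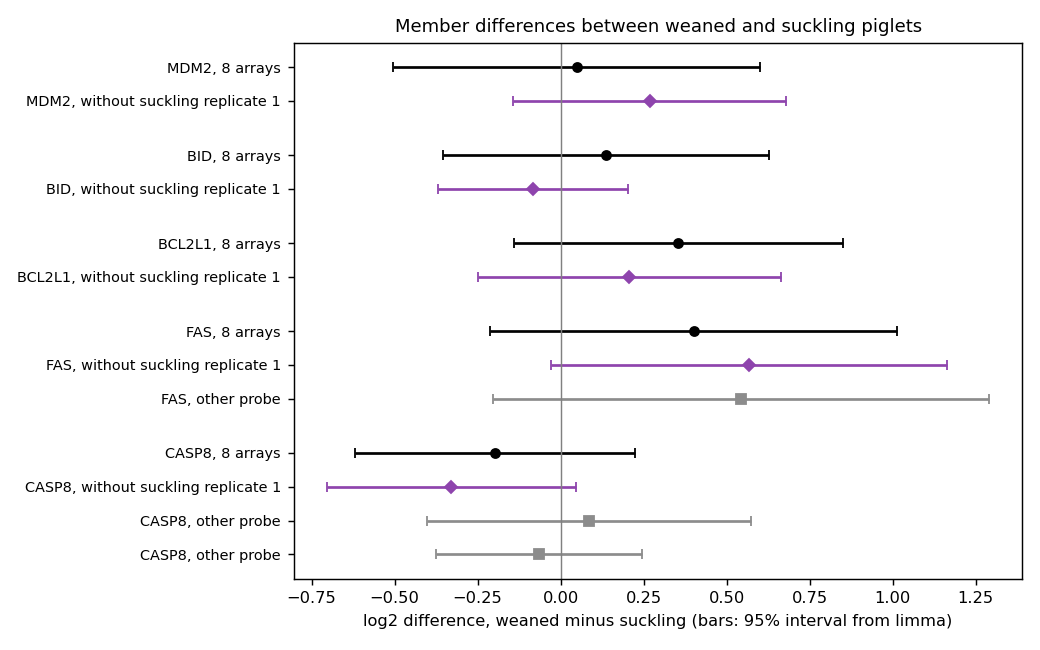
Log2 difference, weaned minus suckling (horizontal axis), with its 95% interval from limma, for the brightest probe of each gene with all 8 arrays and without suckling replicate 1, and for the other FAS and CASP8 probes with all 8 arrays. Every interval includes 0; the FAS interval without suckling replicate 1 runs from -0.03 to 1.16.

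By the pooled SD with all 8 arrays, the spread of the 5 genes within groups was ordinary for this array. For BID that value rested on suckling replicate 1. The BID SD was 0.05 in weaned piglets and 0.03 in the suckling arrays without that replicate. The pooled SD was 0.42 for FAS, 0.37 for MDM2, 0.32 for BCL2L1, 0.31 for BID and 0.25 for CASP8, against a median of 0.31 over all tested probes. Suckling replicate 1 was an extreme array for 4 of the 5 genes. Leaving it out raised the share of all tested probes that passed to 1.82% (553 of 30344), but none of the 5 genes passed and none had groups that did not overlap, where 20.5% of all tested probes did (12.2% higher and 8.34% lower in weaned piglets). No member had an unadjusted p under 0.05 without that array, where 22.5% of all tested probes did.

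The 5 genes did not follow one pattern over the arrays. Some correlated with summed cell type markers of the gut wall before adjustment. Of 40 relations only CASP8 with fibroblast markers passed after adjustment, and by r alone. MDM2 tracked the summed signal of the 4 proliferating crypt cell markers over the 8 arrays, with Pearson's r = 0.78 (exact permutation p = 0.0243, two-sided, and adjusted p = 0.114 for 40 relations) and Spearman's rho = 0.88 (exact permutation p = 0.00724, adjusted p = 0.0966). Without the 2 arrays farthest from the median of the marker sum r was 0.87. FAS had r = 0.81 with the same markers (exact two-sided permutation p = 0.0228, adjusted p = 0.114) and rho = 0.74 (exact permutation p = 0.0458, adjusted p = 0.209), and r = 0.78 without the 2 farthest arrays. Neither relation passed after adjustment. FAS also had r = 0.87 with the 7 macrophage, dendritic cell and neutrophil markers (exact two-sided permutation p = 0.00531, adjusted p = 0.106) and rho = 0.71 (exact permutation p = 0.0576, adjusted p = 0.209). That value was 0.52 without weaned replicates 1 and 2.

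Inverse relations were of similar size, and none of them passed after adjustment. MDM2 had r = -0.77 with the 6 enterocyte markers (exact permutation p = 0.0224, adjusted p = 0.114), rho = -0.76 (exact permutation p = 0.0368, adjusted p = 0.209) and r = -0.62 without the 2 farthest arrays. FAS had r = -0.77 with the enterocyte markers (exact permutation p = 0.0203, adjusted p = 0.114), rho = -0.76 (exact permutation p = 0.0368, adjusted p = 0.209) and r = -0.92 without the 2 farthest arrays. With the 3 fibroblast markers FAS had r = -0.83 (exact permutation p = 0.0150, adjusted p = 0.114), rho = -0.60 (exact permutation p = 0.132, adjusted p = 0.378) and r = -0.84 without the 2 farthest arrays. Both genes thus ran against the enterocyte markers while running with the crypt markers. These marker sums themselves tended to run in opposite directions over the arrays. They were 605 for enterocytes and 58.7 for crypt cells in suckling replicate 1, and 2395 and 17.9 in suckling replicate 4. The opposite signs are therefore not separate observations.

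CASP8 tracked the summed signal of the 3 fibroblast markers with a named probe (COL1A2, DCN and LUM). Here r was 0.92 (exact two-sided permutation p = 0.00112, adjusted p = 0.0446) and rho 0.93 (exact permutation p = 0.00223, adjusted p = 0.0893), and r was 0.84 without the 2 farthest arrays. The fibroblast markers summed to 45.7 to 66.7 in weaned and 52.4 to 84 in suckling piglets, and all 3 had a lower mean in weaned piglets. DCN had the largest part of this sum (mean log2 signal 5.19 in weaned and 5.32 in suckling piglets). COL1A2 came next (3.90 and 4.47), and LUM was small (1.65 and 2.16). The relation of CASP8 with these markers was the only one of the 40 that passed by r after adjustment, and none passed by rho. It was computed on the brightest CASP8 probe alone. The other CASP8 probes, whose group differences did not share one sign, were not tested against the markers. BID had r = 0.72 with the 6 enterocyte markers (exact two-sided permutation p = 0.0491, adjusted p = 0.179) and rho = 0.55 (exact permutation p = 0.171, adjusted p = 0.427). That relation rested on suckling replicates 1 and 4, since r was 0.11 without them. CASP8 also had r = 0.76 with the enterocyte markers (exact permutation p = 0.0284, adjusted p = 0.114), rho = 0.83 (exact permutation p = 0.0154, adjusted p = 0.154) and r = 0.66 without the 2 farthest arrays. Of the 40 relations, which pair the 5 genes with 8 marker lists, 11 had an unadjusted p under 0.05 by r. The remaining ones were FAS with B lymphocyte markers (r = 0.77, rho = 0.71, adjusted p = 0.114 and 0.209 by exact permutation, and r = 0.65 without the 2 farthest arrays) and CASP8 with T and NK lymphocyte markers (r = -0.77, rho = -0.52, adjusted p = 0.114 and 0.437 by exact permutation, and r = 0.15 without suckling replicates 3 and 4, on which it rested). Each slide held 4 arrays of 1 group, too few for a value within a slide, so these relations include any difference between slides. The part of these cell types in the gene values was not tested.

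**Figure D3:**
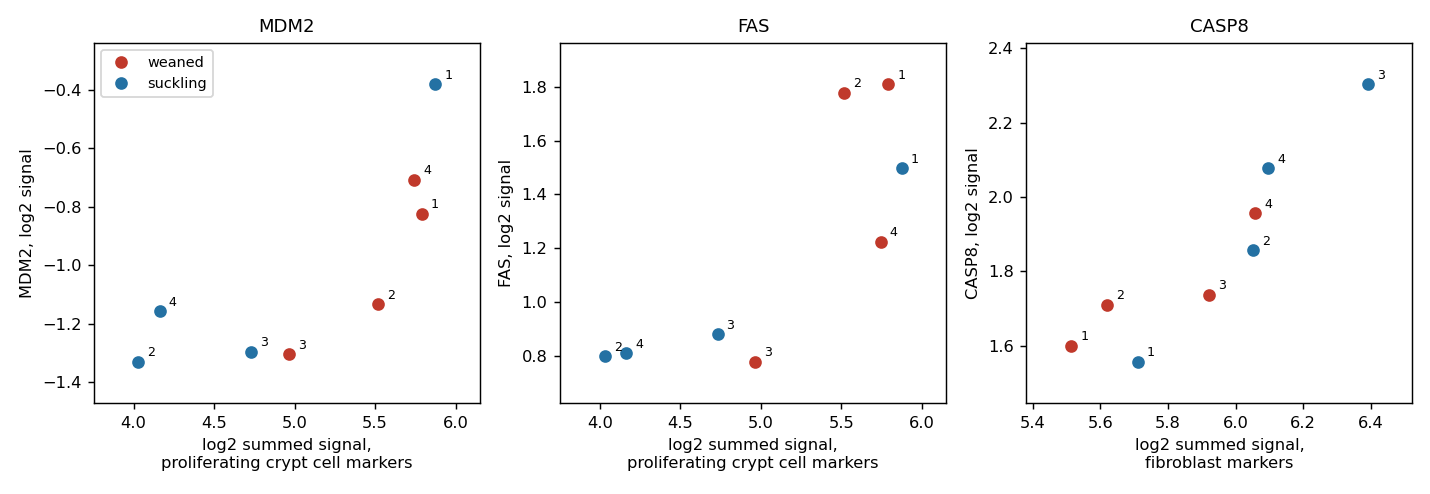
Log2 signal of MDM2 and FAS against the log2 summed signal of proliferating crypt cell markers, and of CASP8 against that of fibroblast markers (points are arrays, numbered by replicate, coloured as weaned or suckling). Each gene is shown on its brightest probe. MDM2 is highest in suckling replicate 1 and in weaned replicates 1 and 4, whose crypt marker sums are the 3 highest; CASP8 is highest in suckling replicate 3, which has the highest fibroblast marker sum.

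The genes with a symbol whose profile over the 8 arrays was most like each member were HMGN2 for MDM2 (r = 0.96, rho = 0.86), PEAK1 for FAS (r = 0.95, rho = 0.79), UBB for CASP8 (r = 0.96, rho = 0.95), CLDN4 for BID (r = 0.98, rho = 0.86) and CARTPT for BCL2L1 (r = 0.98, rho = 0.98). Each was the highest of 2772 genes compared over 8 arrays, so a high value is what such a search returns, and no p is given.

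The other genes of the p53 and apoptosis pathways set the members in context. Of 83 listed genes 29 had a named probe, and all 29 were tested. None passed the threshold (0 of 29), against the 0.177% of all tested probes, and 3 of 29 had an unadjusted p under 0.05, against 12.3%. The mean was higher in weaned piglets for 17 and lower for 12, and the median log2 difference was 0.04, the value over all tested probes.

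CHEK2, a kinase that relays DNA damage to p53, differed by 0.31 (SE 0.32, limma adjusted p = 0.735), and ATM, a kinase above it, by -0.08 (SE 0.21, limma adjusted p = 0.908). The 4 tested genes of the list of p53 and its DNA damage kinases had a median log2 difference of 0.14, and the mean was higher in weaned piglets for 2 and lower for 2.

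The 10 other p53 targets with a probe split evenly, 5 with a higher and 5 with a lower mean in weaned piglets, and had a median log2 difference of -0.09. SFN, the 14-3-3 sigma protein that holds epithelial cells before mitosis, had by far the widest range. Its log2 signal was 2.47, 2.70, -0.79 and 2.81 in weaned and 1.93, -1.73, -1.91 and -2.06 in suckling piglets. Weaned replicate 3 was low among the weaned arrays and suckling replicate 1 high among the suckling arrays, so the groups overlapped. The log2 difference was 2.74 (SE 1.06, limma adjusted p = 0.354). Without suckling replicate 1 it was 3.70 (SE 0.81, limma adjusted p = 0.0606), and over all 20 alternatives it lay between 1.86 and 3.70 without passing. The crypt marker sum was also lowest among weaned arrays in replicate 3 (31.2) and highest among suckling arrays in replicate 1 (58.7), and its part in the SFN values was not tested.

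PMAIP1, which encodes the death-promoting protein NOXA, differed by -0.41 (SE 0.23, limma adjusted p = 0.507) on its brighter probe and by 0.06 (SE 0.26, limma adjusted p = 0.946) on the other. CCNG1, a cyclin that p53 induces, was singled out after its values were seen. It had 3.31, 3.53, 3.48 and 3.31 in weaned and 3.07, 4.24, 3.69 and 4.18 in suckling piglets, so that weaned minus suckling was -0.39 (SE 0.26, limma adjusted p = 0.575). All weaned values lay below suckling replicates 2, 3 and 4, and without suckling replicate 1 the difference was -0.63 (SE 0.17, limma adjusted p = 0.0947).

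**Figure D4:**
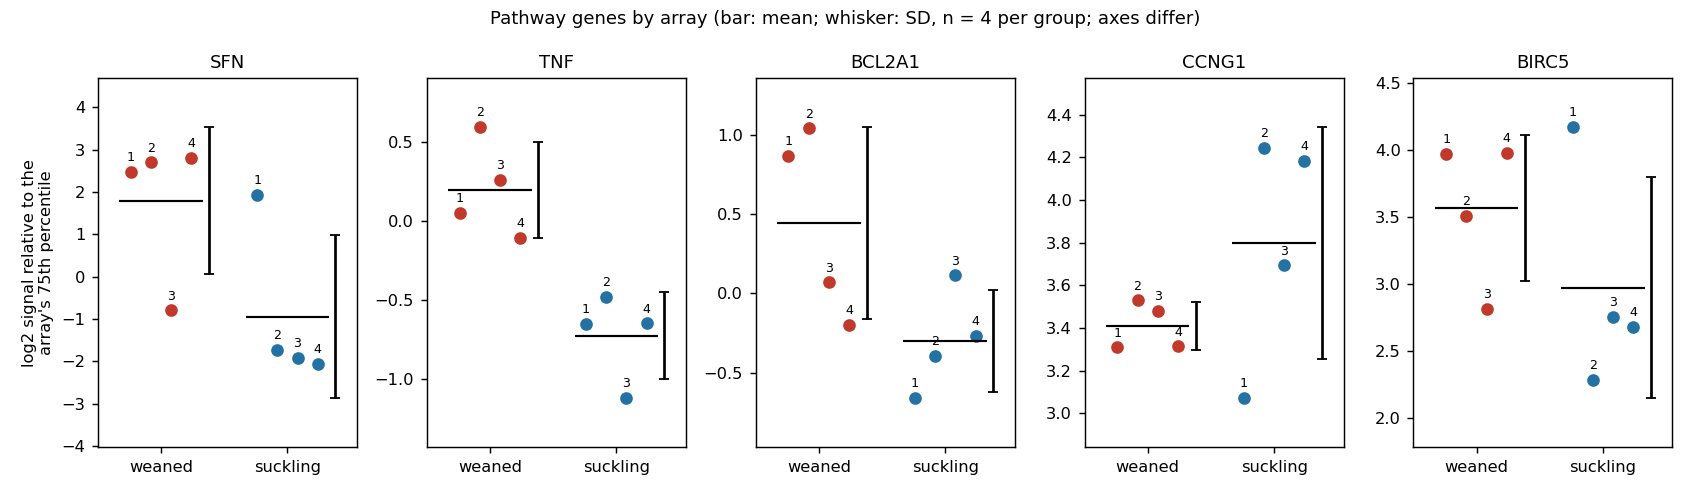
Log2 signal of SFN, TNF, BCL2A1, CCNG1 and BIRC5 relative to the array's 75th percentile (vertical axis, a separate scale for each gene) in 4 weaned and 4 suckling piglets (points numbered by replicate; bar, mean; whisker, SD, n = 4 per group). Of these 5 genes the groups do not overlap for TNF alone; for SFN, weaned replicate 3 (-0.79) and suckling replicate 1 (1.93) lie away from their groups.

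Among 3 other BCL2 family genes the mean was higher in weaned piglets for all, and the median log2 difference was 0.29. BCL2A1, a survival protein known from white blood cells, had 0.87, 1.04, 0.07 and -0.20 in weaned and -0.66, -0.40, 0.11 and -0.27 in suckling piglets, a difference of 0.75 (SE 0.30, limma adjusted p = 0.369). Weaned replicates 1 and 2 were high, and the macrophage, dendritic cell and neutrophil markers also had their 2 highest sums there (53.5 and 54.4, against 37.6 and 40.0 in weaned replicates 3 and 4 and 31.3 to 38 in suckling piglets); the part of these cells was not tested. BCL2L11, which encodes the death-promoting BIM, differed by 0.29 (SE 0.15, limma adjusted p = 0.484), but its second probe by -0.34 (SE 0.21, limma adjusted p = 0.560). BCL2L13 differed by 0.02 (SE 0.18, limma adjusted p = 0.977).

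Of 7 genes of the death receptor pathway the mean was higher in weaned piglets for 3 and lower for 4, and the median log2 difference was -0.07. TNF, a cytokine whose receptor can start death or survival signalling, had 0.05, 0.59, 0.26 and -0.11 in weaned and -0.65, -0.48, -1.12 and -0.65 in suckling piglets. On the brightest probe of each gene it was the only one of the 29 whose groups did not overlap, where 7.76% of all tested probes had such groups. The T and NK lymphocyte marker sum, which mainly follows GZMB, and the endothelium marker sum also did not overlap between groups. The part of these cells in the TNF values was not tested. The log2 difference was 0.92 (SE 0.21, limma adjusted p = 0.151), and it passed with the deposited log2 table alone (1.26, limma adjusted p = 0.0354) among 20 alternatives, whose adjusted p ranged up to 1.00. The second TNF probe differed by 0.42 (SE 0.27, limma adjusted p = 0.570), and its groups overlapped. TNFRSF1A, a receptor of TNF, differed by 0.18 (SE 0.24, limma adjusted p = 0.802) and CASP10, an initiator protease related to CASP8, by -0.20 (SE 0.18, limma adjusted p = 0.692). The 6 probes of CASP10 ran from -0.59 to 0.29 and so did not share a sign. The groups did not overlap on either of those 2 dimmer probes (limma adjusted p = 0.256 and 0.428).

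The direct partners of FAS and CASP8 did not pass either. FADD, the adaptor that joins them, had 4.52 ± 0.09 in weaned and 4.60 ± 0.06 in suckling piglets (SD, n = 4 each), and FASLG, the FAS ligand, -4.95 ± 0.31 in weaned and -4.88 ± 0.16 in suckling piglets, where its dim probe was well above background on 2 weaned and 3 suckling arrays. CFLAR, which encodes the CASP8 inhibitor FLIP, had 2.27 ± 0.32 in weaned and 2.41 ± 0.72 in suckling piglets. Suckling replicate 1 was the lowest CFLAR array (1.36), and the log2 difference was -0.15 with it (SE 0.34, limma adjusted p = 0.892) and -0.50 without it (SE 0.20, limma adjusted p = 0.195). These 3 genes were chosen as partners after their values were seen.

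Downstream of the mitochondria, the mean in weaned piglets was the higher one for 4 of 5 genes, and the median log2 difference was 0.10. CYCS, the cytochrome c that mitochondria release, was singled out after its values were seen. It differed by 0.04 on its brightest probe (SE 0.24, limma adjusted p = 0.964). On its dimmest probe, A_72_P485031, weaned minus suckling was 1.37 (SE 0.26, limma adjusted p = 0.106). That probe was the most extreme of many for CYCS. The groups did not overlap on it, as for 7.76% of all tested probes. All other CYCS probes ran from -0.18 to 0.56, and the groups overlapped on each. DIABLO, which releases caspases from inhibition, differed by 0.26 (SE 0.18, limma adjusted p = 0.592) and XIAP, a caspase inhibitor, by 0.10 (SE 0.14, limma adjusted p = 0.807). BIRC5, the inhibitor survivin that dividing cells use in mitosis, had 3.97, 3.51, 2.82 and 3.98 in weaned and 4.17, 2.28, 2.76 and 2.68 in suckling piglets. Suckling replicate 1 was the highest array and weaned replicate 3 the lowest weaned one, and weaned minus suckling was 0.60 (SE 0.42, limma adjusted p = 0.601) and 1.00 without suckling replicate 1 (SE 0.30, limma adjusted p = 0.109). The crypt marker sums placed the same 2 arrays in the same way within their groups, and their part in the BIRC5 values was not tested.

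**Figure D5:**
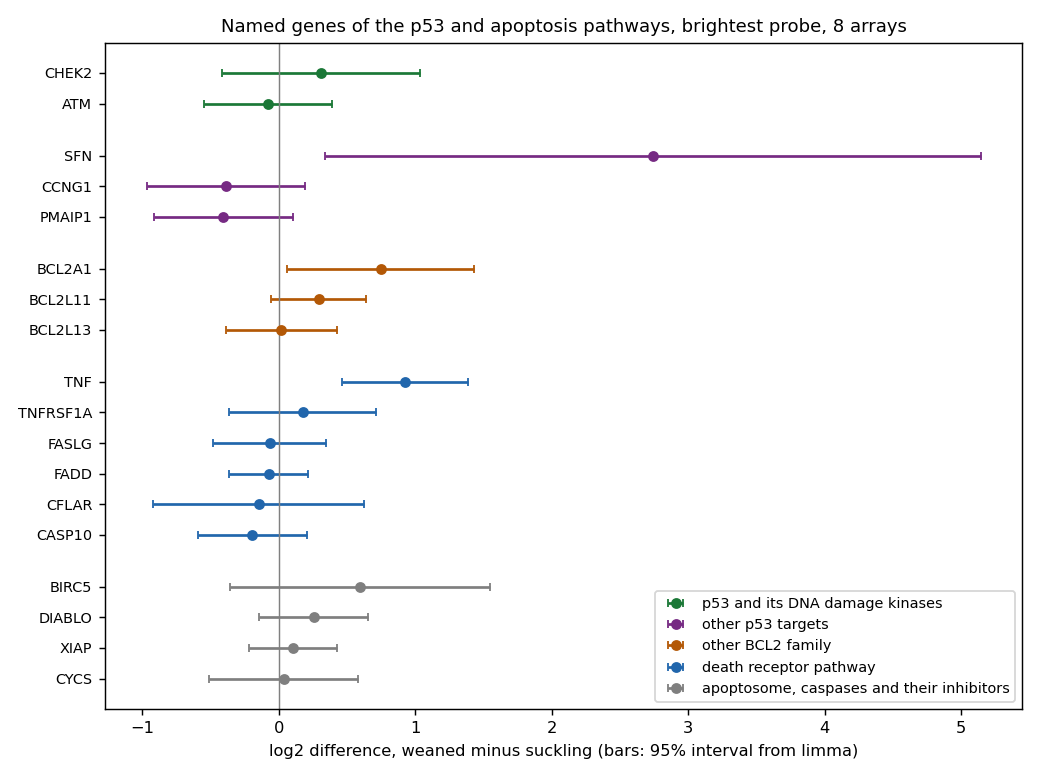
Log2 difference, weaned minus suckling (horizontal axis), with its 95% interval from limma, for the genes of the p53 and apoptosis pathways named in the text, coloured by list. BTG2 and THBS1, named only among the results flagged for a closer look, are not shown. The intervals of SFN, BCL2A1 and TNF lie above 0 before any adjustment for the number of probes tested, and those of the other genes shown include 0.

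Without suckling replicate 1 the groups did not overlap for 4 of the 29 genes (13.8%), lower in weaned piglets for CCNG1 and higher for SFN, TNF and BIRC5, where 20.5% of all tested probes had such groups. None of the 29 passed in that comparison either.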

How the data were processed

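Jejunal RNA of 4 weaned and 4 suckling piglets was labelled with Cy3 and hybridised to 1-colour Agilent arrays, per the labels' protocols. The deposited intensity values came from Agilent Feature Extraction 10.7, per the submitters' processing notes, and the processed signal is background-subtracted, per the file headers. The authors' deposited log2 table has column medians of 5.50 and its normalization is not given in the sources used here. It served as an alternative.

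Outlier spots were set missing, spots of a probe were averaged as log2, and each array's 75th percentile was subtracted. Probes were tested when well above background on at least 4 of 8 arrays with at least 3 values per group, using limma 3.58.1 in R 4.3.3 with Benjamini-Hochberg adjustment over 30554 probes. Symbols came from RefSeq accessions (Sscrofa11.1 annotation, names alone), which named 6924 of 43603 probes (15.9%). Between 67.6% and 71% of probes per array were well above background, and the number of arrays limits the precision. The fit was tested on simulated data.

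Members and gene lists were chosen with earlier results of these data known. Named were all members with a probe. From each pathway list all genes past the threshold were named, otherwise the 3 with the smallest unadjusted p, and for each member the gene with the highest Pearson correlation. Some genes of the pathway lists are not reported here by name. Marker genes were summed as linear signals and correlated on the log2 scale. Replicate numbers were not tied to litters in the labels. Alternatives covered normalization, background, filters, weights per array, a block for the replicate number, and each array left out. Both background alternatives used median spot signals and an offset of 50 intensity units.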

Additional observations from a re-analysis of the deposited data

Results flagged for a closer look

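Of 68 groups of 4 arrays examined (the member and pathway genes in each treatment), 6 had 1 array far from the other 3, by the gap to its nearest neighbour as a share of the whole range of the group. Chance gives about 1 in 20. For the members, BID in suckling replicate 1 was low (gap share 0.926) and FAS in the same array was high (0.884). Suckling replicate 1 was also high for BTG2 (0.859), an antiproliferative gene that p53 induces, and for SFN (0.917). Among weaned arrays, SFN was low in replicate 3 (0.904) and THBS1, a matrix glycoprotein, was low in replicate 4 (0.843) on its brightest probe. On the other 5 THBS1 probes replicate 3 was the lowest weaned array.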

How the results depend on the processing

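No member passed the limma threshold under any of 20 alternatives. FAS stayed higher in weaned piglets (log2 difference 0.26 to 0.62) and CASP8 lower (-0.33 to -0.04) in all 20. MDM2 turned to -0.0445 with normexp background correction and ran from -0.0476 to 0.2682 with each array left out. BID turned to -0.0109 with array weights and ran from -0.0827 to 0.2191 with each array left out. BCL2L1 turned to -0.2062 with normexp and to -0.0289 with normexp using the median background at outlier background spots, an alternative chosen after seeing the data; it was not tested when all 8 arrays had to be above background. The median of the members was -0.0443 with normexp, which moved the median of all probes to -0.10. At an unadjusted p under 0.05 there was 1 member with array weights (FAS), 1 without weaned replicate 3 and 1 without suckling replicate 3 (BCL2L1). The cause of these turns was not tested.

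Over all probes 54 passed. The count was 0 with normexp (251 at an unadjusted p under 0.05), 328 with array weights and 73 with the added background alternative. It was 10, 11, 20 and 9 without weaned replicates 1 to 4, and 553, 21, 25 and 40 without suckling replicates 1 to 4. Among pathway genes 1 passed (TNF) with the deposited log2 table. With the replicate block 0 probes passed (4194 at an unadjusted p under 0.05). Deviations of same-numbered arrays correlated at 0.368, 0.008, 0.186 and -0.018, so the numbers were not shown to pair the animals, and not every array correlated best with its own number. With 4 arrays a group the median SE was 0.22 log2, which limits the differences that could be detected.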
